A study of Homo sapiens with 6 samples.

Results

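Mutually exclusive exon (MXE) events are pairs of exons of which a transcript is modelled to carry either one or the other between the same flanking exons. All 526 MXE rows of the deposited splicing table of SW480 cells were taken, out of 1449 listed splicing events, the rest of which included 853 skipped exon (SE) events. SW480 is a human colorectal adenocarcinoma line. The series held 3 libraries of cells with a control short hairpin RNA (shCtrl, genotype given as WT) and 3 of cells with a hairpin that depletes MORC2 (shMORC2), a nuclear ATPase of the microrchidia family, all grown in the same serum-supplemented medium. The study's methods describe its lentiviral hairpin lines, controls included, as stable clonal lines picked with puromycin, so the 3 libraries of a group may share a clone, and clone and hairpin cannot be told apart. The study's methods name 3 replicate experiments for each group, and p-values below measure the spread between those samples.

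The splicing table calls its sets of 3 libraries group 1 and group 2 and does not say which of them is shMORC2. Differences in inclusion are therefore group 1 minus group 2, with no knockdown direction. The table lists events that passed the authors' thresholds on that same contrast, so the inclusion values are a description and were not tested. Gene expression was not used to choose the events, and it was tested between shMORC2 and shCtrl.

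The choice between mutually exclusive exons lets a gene swap one protein segment for another without changing the rest of the protein. Classical pairs often arose by duplication of an exon, lie close together, have like lengths and are governed by RNA-binding proteins such as PTBP1, RBFOX2, the MBNL proteins and the epithelial regulators ESRP1 and ESRP2. The pairs below were described by these features, by their annotation in GENCODE release 44 on GRCh38 and by their inclusion level, which runs from 0 to 1 and is the share of the upstream exon (the one nearer the 5′ end of the transcript) after division of reads by the length of each form.

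Exon sequences of pairs with high likeness between partners, and of pairs the results turn on, are shown first. Each is written 5′ to 3′ on the transcribed strand of GRCh38 with 10 bases of intron on each side, and the capitals mark the last 2 bases of the upstream intron and the first 2 bases of the downstream intron. The U2AF1L5 pair, on the minus strand at chr21:6493044-6493110 and chr21:6492131-6492197, had the highest identity of all pairs, at 64.4%.
U2AF1L5 upstream exon: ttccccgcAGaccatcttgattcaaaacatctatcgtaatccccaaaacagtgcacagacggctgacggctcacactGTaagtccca
U2AF1L5 downstream exon: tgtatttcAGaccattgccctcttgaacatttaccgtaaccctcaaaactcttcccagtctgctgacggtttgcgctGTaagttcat
The ADAM15 pair, on the plus strand at chr1:155061418-155061489 and chr1:155061904-155061975, followed with an identity of 62.5%.
ADAM15 upstream exon: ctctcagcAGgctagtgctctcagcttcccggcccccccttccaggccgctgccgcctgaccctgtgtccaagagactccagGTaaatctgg
ADAM15 downstream exon: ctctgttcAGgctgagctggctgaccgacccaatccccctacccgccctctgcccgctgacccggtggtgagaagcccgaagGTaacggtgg
The MARK2 pair, on the plus strand at chr11:63903061-63903158 and chr11:63903986-63904147, is shown because MARK2 was followed in the study and because its downstream exon has a GC donor, which 1 exon in each of 6 events had.
MARK2 upstream exon: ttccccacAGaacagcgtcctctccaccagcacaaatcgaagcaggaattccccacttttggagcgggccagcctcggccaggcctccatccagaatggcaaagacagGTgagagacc
MARK2 downstream exon: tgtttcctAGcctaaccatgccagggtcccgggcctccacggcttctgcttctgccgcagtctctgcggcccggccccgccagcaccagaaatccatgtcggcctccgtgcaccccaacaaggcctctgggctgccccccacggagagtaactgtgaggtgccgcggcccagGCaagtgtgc
The MYBL2 pair of exons 2 and 4, on the plus strand at chr20:43673806-43673899 and chr20:43682794-43682886, is shown because it combined a large difference with deep reads.
MYBL2 upstream exon: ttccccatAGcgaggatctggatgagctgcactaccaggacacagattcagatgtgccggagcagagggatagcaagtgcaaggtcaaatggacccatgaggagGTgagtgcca
MYBL2 downstream exon: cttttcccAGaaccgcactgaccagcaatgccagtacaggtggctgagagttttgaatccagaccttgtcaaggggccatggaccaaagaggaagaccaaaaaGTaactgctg

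In the annotation, the partners of nearly every pair were carried together by a transcript. For 520 of the 526 events (98.9%), at least 1 annotated transcript carried both exons. In 485 events both stood next to each other in such a transcript, and in 418 (79.5%) the canonical transcript of the gene itself carried them as neighbours. Both forms that the event models, each with 1 of the exons between the flanking exons, were annotated for 84 events, 1 form for 167 and neither form for 275 (52.3%). Only 3 events, in SYNJ2BP-COX16, RP11-421L21.3 and HSF4, had both forms annotated and no transcript with both exons. Among SE events the form with the exon and the form without it were both annotated for 527 of 853 (61.8%) and neither for 89.

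**Figure D1:**
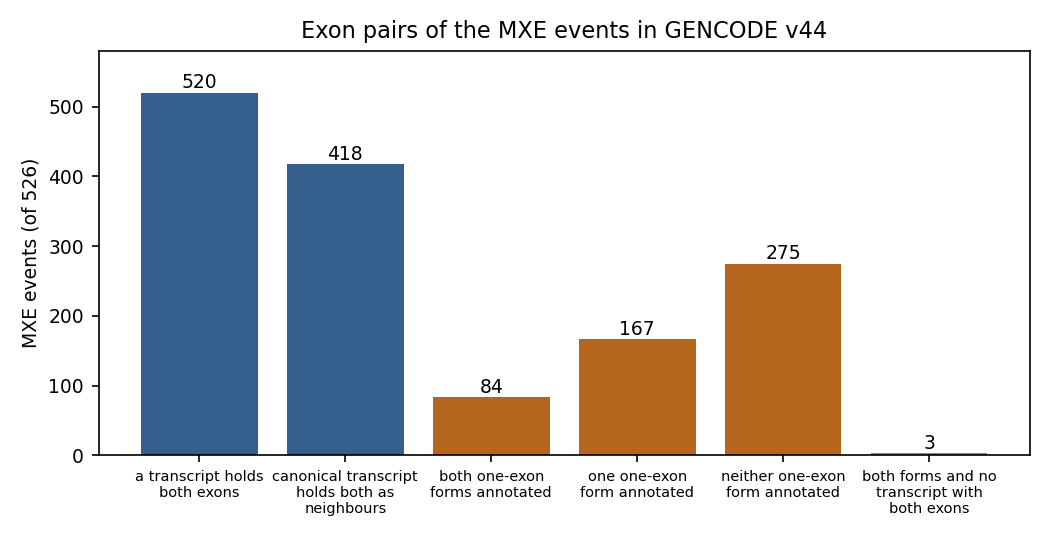
Number of the 526 MXE events (y axis) in each annotation class of GENCODE release 44 (x axis). Blue bars count pairs carried together by a transcript (520) or as neighbours by the canonical transcript (418), and orange bars count the one-exon forms, of which both were annotated for 84 events and neither for 275.

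The 6 events without a joint transcript were, beside those 3, in U2AF1L5, TBC1D1 and LA16c-380H5.1, and they are named because of this count. SYNJ2BP-COX16, a readthrough of neighbouring genes, stood at an inclusion of 0.112, 0.165 and 0.14 in group 1 and 0.293, 0.358 and 0.282 in group 2, so its groups did not overlap. In TBC1D1, a Rab GTPase-activating protein, inclusion was 0.72, 0.646 and 0.687 in group 1 and 0.873, 0.755 and 0.792 in group 2. RP11-421L21.3, HSF4 (a heat shock transcription factor) and LA16c-380H5.1 had between 1 and 5 reads in each library, and their groups overlapped. The exons of the RP11-421L21.3 pair abut with no base between them.

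The exons themselves were of ordinary size and mostly far apart. The median length was 105.5 bases for upstream exons and 108 bases for downstream exons, with a range of 12 to 1418 bases for each. The partners were separated by a median of 3322 bases, 400 pairs (76.0%) by over 1000 bases and 9 by under 100. In 500 events the upstream exon had a number in the canonical transcript, and it was exon 2 in 158 and exon 3 in 95. The downstream exon was the next to last canonical exon in 62 events. Consensus AG acceptors and GT donors flanked both exons in 520 events.

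Most pairs would not keep the reading frame on a swap of partners. The lengths differed by a multiple of 3 in 202 pairs (38.4%), and 12 pairs had partners of equal length. Both lengths were multiples of 3 in 114 pairs, 1 of them in 250 and neither in 162. Both exons were coding in some transcript in 483 pairs. Single exons of MXE events had a length divisible by 3 in 45.4%, against 48.5% of SE exons.

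Identity between partners was set beside that between neighbouring exons. The median identity over alignment columns was 45.5% for the pair, 43.1% for the upstream exon against the flanking exon before it and 43.3% for the downstream exon against the flanking exon after it. An identity of at least 0.5 was reached by 95 pairs, against 86 and 100 of these neighbour comparisons, and one of at least 0.6 by 3, against 3 and 2. U2AF1L5 and ADAM15 were among the pairs above 0.6, both with partners of equal length.

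The events lay in 480 genes, of which 443 had 1 event, 32 had 2 and 5 had at least 3. Protein-coding genes held 498 events and long non-coding RNA genes 20. Distinct pairs numbered 522, since 4 events repeated a pair with other flanking exons, and 40 of the 1007 distinct exons took part in more than 1 event. An exon of 59 events (11.2%) was listed as a skipped exon too, and both exons in 8. MXE and SE events met in 76 genes, which were 15.8% of the genes with MXE events and 10.3% of the 736 genes with SE events.

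The splicing records name reads on target and junctions, but the reads of an exon depended on the neighbours of the event. In group 2 library 3, KIAA2026 exon 3, of 1418 bases, had 7 reads as partner of exon 2 and 36 as partner of exon 4. Reads inside that exon would be the same in both events, so they can be only a small part of the 36. Junctions with the flanking exons can be shared by transcripts that carry both exons. In each library, 179803 to 197455 reads fell on the MXE events. The least covered library of an event had a median of 58 reads, with a range of 1 to 19409, against a median of 8 for SE events. Whether reads with the same molecular identifier were collapsed in this table is not given in the sources used here.

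Inclusion clustered in the middle of the scale. The mean over the 6 libraries had a median of 0.465 (range 0.0595 to 0.948), and it lay between 0.25 and 0.75 for 395 events (75.1%). This share was 77.4% where both forms were annotated and 74.9% where neither was. The listing of differences of at least 0.1 leaves out means next to 0 or 1. A transcript with both exons gives reads to both forms, so a middle level does not show a choice between them.

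The groups differed by a median of 0.148 in absolute value, from 0.1, the least the table lists, to 0.748. The 3 values of a group spanned a median of 0.0885 in group 1 and 0.0915 in group 2. All 3 group 1 values lay on the same side of all 3 group 2 values for 407 events (77.4%), against 59.8% of all listed events, a share which the listing on this contrast raises by itself. Differences of at least 0.2 numbered 124 (23.6%), against 40.5% of all listed events. Group 1 was lower in 304 events and higher in 222, that is lower in 57.8%, against 51.7% of all listed events. Lower means less of the upstream exon in an MXE event but less of the skipped exon in an SE event, so these shares measure unlike things. All listed events include the MXE events.

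Depth moved with these numbers. Of the 390 events whose libraries all had 20 reads or more, 342 (87.7%) had groups that did not overlap, and the median absolute difference was 0.135. Of the 88 events under 10 reads in a library, 34 (38.6%) did not overlap and the median absolute difference was 0.253. At 20 reads or more, 190 of 247 SE events (76.9%) did not overlap, with a median absolute difference of 0.141. Differences of at least 0.2 were 39 of the 390 deeper events.

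**Figure D2:**
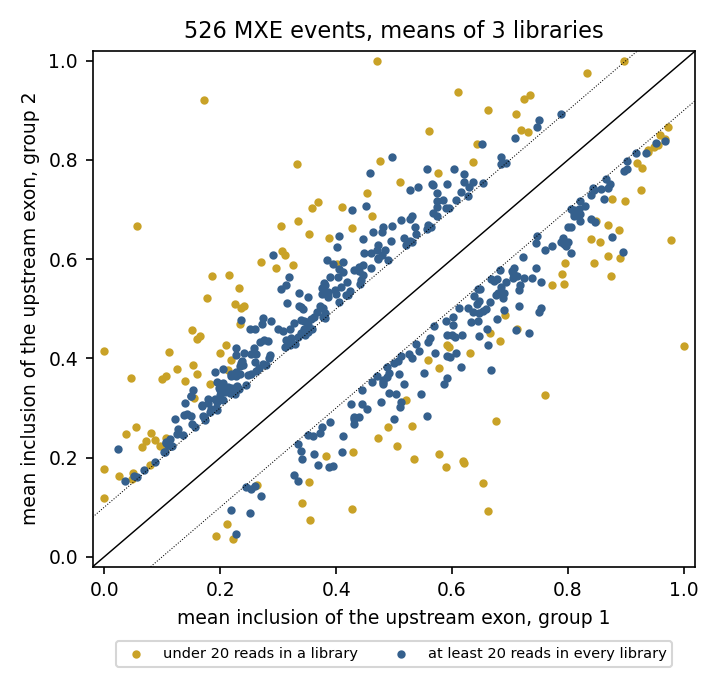
Mean inclusion of the upstream exon in group 1 (x axis) and group 2 (y axis), 0 to 1, for the 526 MXE events, 1 point each, with the line of equality and dotted lines at a difference of 0.1. The band between the dotted lines is empty because events within it were not listed, and the points farthest from it are mostly among the events with under 20 reads in a library.

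Direction varied along the transcript. Where the upstream exon lay in the first of 4 equal stretches of the canonical exons, group 1 was lower in 78 and higher in 74 events (51.3% lower). The share lower was 55.2% of 201 events in the second stretch, 68.9% of 103 in the third and 72.7% of 44 in the fourth. The median of the least reads was 61, 62, 62 and 51 in these stretches. The share lower was 59.4% where the upstream exon had the higher GC content and 56.0% elsewhere, and it was 61.4% where the upstream exon was the longer one and 54.5% elsewhere. Whether position along the transcript has a part in the differences was not tested.

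Among 48 genes known from textbooks for mutually exclusive exons, such as PKM, the tropomyosins and the FGF receptors, TCF3 alone had listed MXE events. TCF3 encodes the E12 and E47 transcription factors by a choice of exons near its 3′ end, but the listed pair was exons 6 and 8 of 19 (minus strand, chr19:1627359-1627426 and chr19:1623951-1624000), listed with different flanking exons. With one set, inclusion was 0.216, 0.321 and 0.118 in group 1 and 0.319, 0.402 and 0.383 in group 2, so the groups overlapped. With the other it was 0.532, 0.68 and 0.556 against 0.682, 0.688 and 0.74, without overlap. TCF3 expression was 294 ± 9.80 CPM (counts scaled to library size, SD, n = 3) in the controls and 297 ± 15.8 CPM after depletion, with an edgeR adjusted p of 0.897.

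U2AF1 itself, a textbook gene whose product recognizes the 3′ splice site, was not among the hosts, but U2AF1L5, a near copy of it, was. GENCODE release 44 calls the U2AF1L5 entry an artifact, and reads of the copies cannot be told apart with certainty. The pair consists of exons of 67 bases each, with inclusion of 0.448, 0.495 and 0.473 in group 1 and 0.617, 0.603 and 0.583 in group 2. All values of group 1 were below those of group 2, at 96 to 128 reads a library.

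The other pairs with the highest identity had less depth or smaller differences. ADAM15, a membrane metalloproteinase, had 0.111, 0.125 and 0.222 in group 1 and 0.3, 0.5 and 0.357 in group 2, at 8 to 16 reads, without overlap. ERBB3, a receptor tyrosine kinase of the EGF receptor family, had 0.525, 0.652 and 0.711 against 0.742, 0.747 and 0.746 for exons 18 and 19. Its group 1 library 1 stood lowest, and the groups did not overlap. LGR6, a receptor for R-spondins built of leucine-rich repeats, had 0.708, 0.9 and 1.0 against 0.733, 0.5 and 0.588 for exons 13 and 14, with overlap.

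The 10 largest differences among events whose libraries all had 20 reads or more and no overlap went both ways, with group 1 lower in 4 and higher in 6. The depth filter and the lack of overlap were part of how they were picked, so their separation is no result. For MYBL2, PSMD5, MICAL3, PDCD2L, AARSD1, ERI3 and RNF123, annotated transcripts carried both exons, and neither one-exon form was annotated. Transcripts with both exons can give reads to each form through their junctions with the flanking exons. In these genes a swap of exons therefore cannot be told apart from unequal coverage of exons that a transcript carries together. MYBL2, a transcription factor of cycling cells, had the deepest reads of the 4 that were lower, and is described with its read counts. Inclusion of exon 2 over exon 4 was 0.518, 0.401 and 0.456 in group 1 and 0.654, 0.836 and 0.831 in group 2, a difference of -0.315. Reads of the exon 2 form numbered 120, 70 and 90 against 211, 424 and 518. Reads of the exon 4 form numbered 111, 104 and 107 against 111, 83 and 105. The reads of exon 2 thus differed between the groups without overlap, and those of exon 4 overlapped.

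PSMD5, a chaperone of proteasome assembly, stood at 0.106, 0.383 and 0.383 in group 1 against 0.554, 0.569 and 0.7 (exons 4 and 7, chr9:120831331-120831459 and chr9:120824494-120824685, minus strand). Group 1 library 1 was farthest from group 2, and without it the difference was -0.225 in place of -0.317. No library of this event had more than 33 reads, and the exon 4 form had 2, 7 and 10 reads in group 1. MICAL3, an enzyme that oxidizes actin, stood at 0.35, 0.443 and 0.488 against 0.763, 0.728 and 0.605 (exons 20 and 21). PDCD2L, a relative of PDCD2, stood at 0.404, 0.471 and 0.482 against 0.763, 0.72 and 0.637 (exons 2 and 3). The partners measure 129 and 192 bases in PSMD5, 196 and 254 in MICAL3 and 167 and 61 in PDCD2L, so a swap keeps the frame in PSMD5 alone of these 3.

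Of the pairs with group 1 higher, AARSD1, an editing protein for mischarged alanyl-tRNA, stood at 0.733, 0.655 and 0.613 against 0.329, 0.337 and 0.466 (exons 6 and 7, chr17:42956204-42956320 and chr17:42955842-42955972, minus strand). ERI3, a member of an exoribonuclease family, stood at 0.802, 0.747 and 0.651 against 0.452, 0.435 and 0.464 (exons 4 and 5). RNF123, a ubiquitin ligase, stood at 0.887, 0.869 and 0.929 against 0.613, 0.549 and 0.679 (exons 13 and 14). In ERI3 and RNF123 the form of the downstream exon had 4 to 7 and 2 to 5 reads in the group 1 libraries, and in GGPS1, described next, 3 to 8, so those levels rest on few reads. GGPS1, the geranylgeranyl diphosphate synthase, stood at 0.686, 0.713 and 0.851 against 0.416, 0.593 and 0.474 (exons 2 and 3).

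MFF, the receptor of the mitochondrial fission machinery, was the protein-coding gene of these 10 with both one-exon forms annotated. Its pair lay at chr2:227342745-227342819 and chr2:227347226-227347384 on the plus strand, with 2 transcripts for each form and 2 with both exons. Inclusion was 0.619, 0.552 and 0.497 in group 1 and 0.248, 0.383 and 0.22 in group 2, at 28 to 51 reads. The upstream exon had 15, 14 and 21 reads against 7, 11 and 5, and the downstream exon 13, 16 and 30 against 30, 25 and 25.

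**Figure D3:**
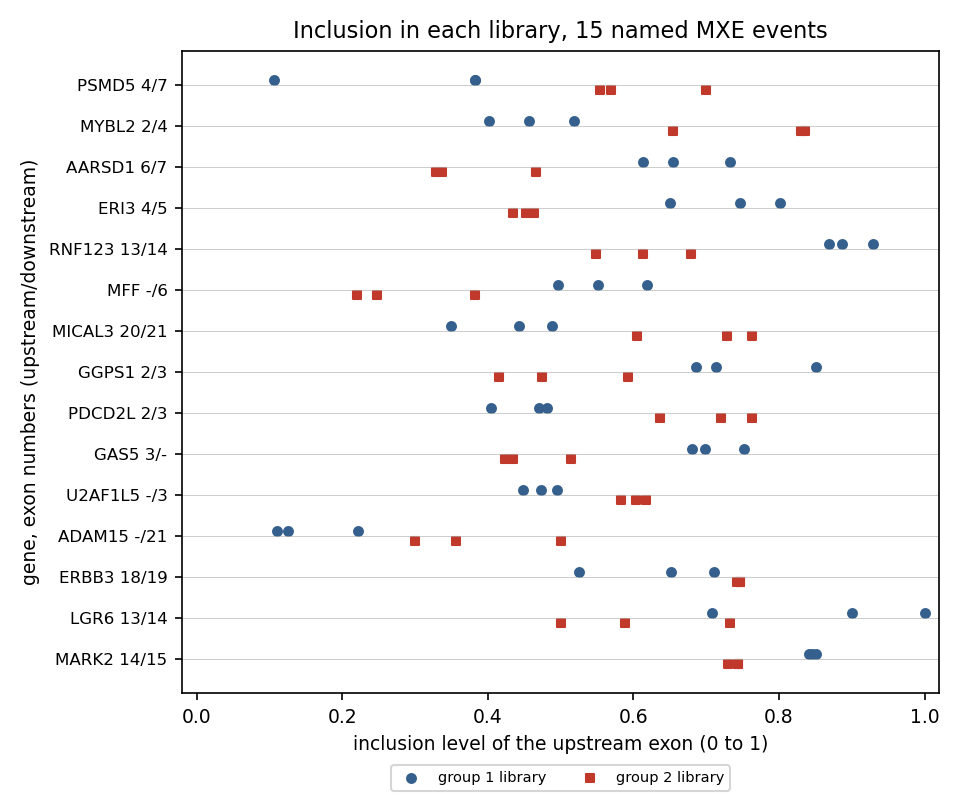
Inclusion of the upstream exon (x axis, 0 to 1) in each of the 3 group 1 libraries (blue circles) and 3 group 2 libraries (red squares) for 15 named events (y axis, gene with the canonical numbers of the upstream and downstream exon, a dash where the canonical transcript lacks the exon). The first 10 were picked for large differences without overlap, and among the rest LGR6 overlaps.

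MARK2, a kinase of cell polarity, was the only one of 5 genes followed in the study (CDK5RAP2, OBSL1, MARK2, ZNF35 and FRMD8) with a listed MXE event. Inclusion of exon 14 over exon 15 was 0.851, 0.841 and 0.845 in group 1 and 0.73, 0.744 and 0.744 in group 2, at 160 to 195 reads. The groups did not overlap, and the difference was 0.106. Reads of exon 14 numbered 156, 136 and 158 against 114, 125 and 111, and reads of exon 15 numbered 35, 33 and 37 against 54, 55 and 49. Exon 15 was listed as a skipped exon as well, with inclusion of 0.42, 0.631 and 0.522 against 0.643, 0.717 and 0.623. In both listings the group 1 mean had the smaller share of exon 15, and in the SE listing the groups overlapped. Annotated transcripts numbered 5 with both exons, 10 with exon 14 alone and 0 with exon 15 alone.

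GAS5, a long non-coding RNA that hosts small nucleolar RNAs in its introns, had the most events, with 7 built from overlapping exons between chr1:173865857 and chr1:173866796 on the minus strand. Group 1 was higher in all 7, and in none did the groups overlap, but the events share exons and reads and were among the deeper ones, of which 87.7% did not overlap. For exon 5 over exon 6, inclusion was 0.885, 0.877 and 0.868 in group 1 and 0.67, 0.613 and 0.649 in group 2, at 725 to 1031 reads. The event with the largest difference set exon 3 against a long exon of 350 bases that runs through the intron between exons 5 and 6. Its inclusion was 0.752, 0.699 and 0.681 against 0.515, 0.424 and 0.434. The exon 3 form had 129, 117 and 110 reads against 96, 103 and 81, while the long form had 123, 146 and 149 against 261, 405 and 305.

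LIG1, the DNA ligase of replication, had 3 events in exons 5 to 7, each with group 1 lower and no overlap. For exon 6 over exon 7 (chr19:48153872-48153967 and chr19:48151232-48151339, minus strand), inclusion was 0.559, 0.532 and 0.61 against 0.798, 0.738 and 0.715, at 271 to 366 reads. The pair of exons 5 and 6 stood at 0.154, 0.223 and 0.141 against 0.267, 0.304 and 0.274. Exon 6 was thus the downstream partner in one event and the upstream partner in the others. As downstream partner its form had 164, 138 and 161 reads in group 1 against 123, 115 and 128. As upstream partner of exon 7 it had 149, 147 and 162 against 289, 217 and 217. The reads of exon 6 thus went opposite ways in these events. The remaining event repeats the latter with an exon of 105 in place of 108 bases, and nearly the same reads.

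HDAC11, a histone deacetylase of its own class, had 3 events that all used exon 6 as downstream partner, with 7 to 37 reads and overlapping groups. KIAA1191 had 3 events with exon 3 upstream and differences of -0.125, -0.117 and -0.115, of which one overlapped. KIAA2026 had 3 events along exons 2 to 5 with 7 to 52 reads. The one that did not overlap set exon 3, of 1418 bases, against exon 4, at 0.277, 0.344 and 0.337 against 0.588, 0.393 and 0.709. The exon 4 form had 11, 7 and 8 reads against 4, 9 and 2, and the difference of -0.244 became -0.122 for read shares without the correction for form length.

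The deepest events, named after their values were seen, lay in genes of ribosomal proteins, and their replicates lay close together. RPL13A (exons 5 and 6) stood at 0.206, 0.224 and 0.216 against 0.321, 0.334 and 0.349, at 19409 to 24127 reads. RPS3 (exons 4 and 5) stood at 0.175, 0.184 and 0.179 against 0.313, 0.318 and 0.321. RPL19 (exons 3 and 4) stood at 0.333, 0.341 and 0.332 against 0.527, 0.53 and 0.537.
Each gap between the groups was several times the span within them. In RPL19 the exon 3 form had 3071, 3649 and 3327 reads against 6337, 6947 and 7595, while the exon 4 form had 6091, 6992 and 6637 against 5638, 6106 and 6488. Both RPL19 exons are neighbours in annotated transcripts, and neither form with 1 of them is annotated. Ribosomal protein genes have many processed copies in the genome that can share reads, which makes these values uncertain.

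Of 29 RNA-binding proteins and cofactors known for exon choice, 5 were themselves hosts of an MXE event, as were 2.29% of the 21005 genes tested for expression, and hosts had higher levels than genes at large (given below). Nothing particular to the regulators was tested from this. In HNRNPA2B1, exon 9 over exon 10 stood at 0.321, 0.346 and 0.35 in group 1 and 0.478, 0.48 and 0.472 in group 2 (chr7:26193251-26193373 and chr7:26192495-26192577, minus strand). Its exon 10 form had 6872, 6410 and 6161 reads against 3701, 2719 and 3310, whereas its exon 9 form had 3854, 4023 and 3944 against 4029, 2986 and 3521. The exon 10 reads differed between the groups without overlap, and the exon 9 reads overlapped.
HNRNPA1 (exons 6 and 8), its close relative, stood at 0.649, 0.615 and 0.616 against 0.728, 0.736 and 0.72. HNRNPH1 (exons 2 and 3), which binds runs of G, stood at 0.509, 0.448 and 0.504 against 0.374, 0.386 and 0.39. RBFOX2 (exons 2 and 3, separated by 128842 bases) stood at 0.217, 0.342 and 0.385 against 0.512, 0.505 and 0.517. In TRA2A (exons 2 and 3), an activator of exon inclusion, the values were 0.369, 0.419 and 0.529 against 0.312, 0.173 and 0.359. No groups overlapped in these 5 events, which were chosen after their values were seen, and 87.7% of all MXE events with at least 20 reads in each library did not overlap either.

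**Figure D4:**
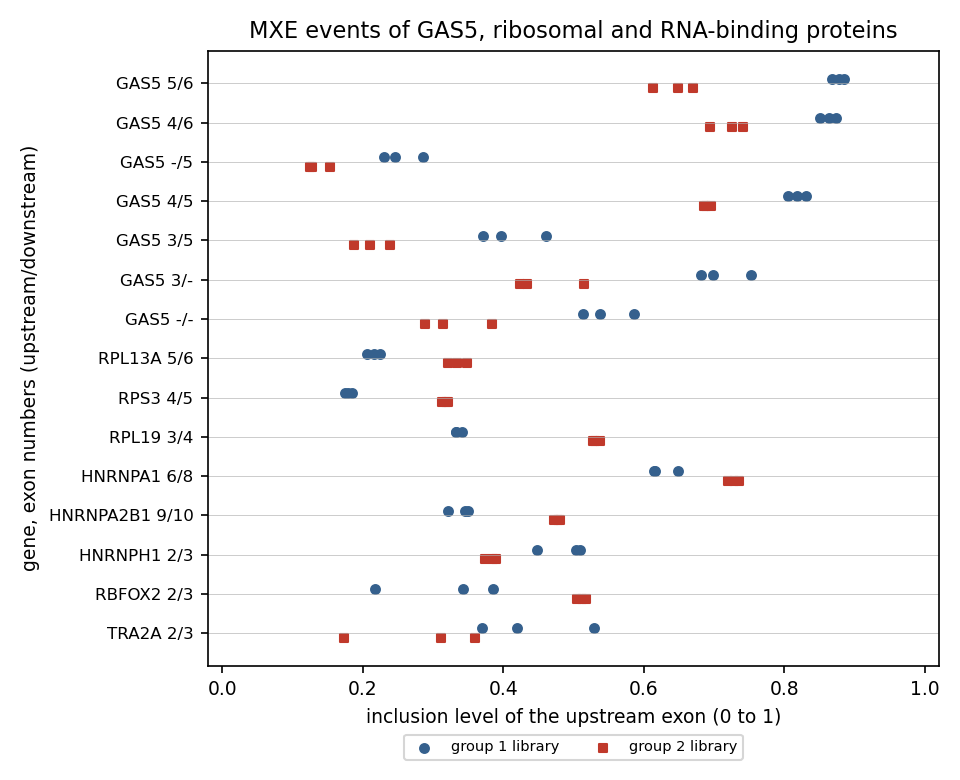
Inclusion of the upstream exon (x axis, 0 to 1) in each group 1 library (blue circles) and group 2 library (red squares) for the 7 events of GAS5, the 3 deepest events and the 5 events in regulators of exon choice (y axis, gene with canonical exon numbers, a dash where there is none). The GAS5 events all have group 1 on the right, and the replicates of the ribosomal protein events lie close together.

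To see whether the host genes differed in level, gene counts were tested between shMORC2 and shCtrl with edgeR. All 480 host genes passed the count filter. At an adjusted p under 0.05, 230 (47.9%) were called, against 39.5% of the 21005 genes tested and 44.5% of the 701 genes with other listed events. Higher in shMORC2 were 99 (20.6%, against 19.9% of all genes) and lower were 131 (27.3%, against 19.6%). The median log2 fold change of the hosts was -0.04 and their median absolute log2 fold change 0.23, against -0.01 and 0.31 for all genes. The groups did not overlap for 268 hosts (55.8%), against 50.2% of all genes. Host genes had a median level of 45.9 CPM, against 8.49 CPM for all genes tested, and the part of this in the counts of calls was not tested. With the replicate number as a block, 295 of the 480 hosts were called, against 10287 of the 21005 genes (49.0%). In bulk RNA, fewer cells that express a gene and less of its RNA per cell cannot be told apart.

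Calls among hosts were mostly of small size, with 9 of 480 hosts past an absolute log2 fold change of 1, against 1627 of 21005 genes (7.75%). ADAM15 had 39.3, 42.8 and 43.3 CPM in the controls and 23.1, 26.9 and 27.3 CPM after depletion, a log2 change of -0.70 with an SE of 0.09 (edgeR adjusted p 0.000054). PDCD2L had 14.6, 16.6 and 16.9 against 9.76, 9.46 and 9.98 CPM, a log2 change of -0.72 with an SE of 0.10 (edgeR adjusted p 0.000111). KIAA2026 had 19.4 to 22.3 against 12.1 to 15.4 CPM, a log2 change of -0.56 with an SE of 0.11 (edgeR adjusted p 0.00108). These 3 hosts were lower in every shMORC2 library than in any shCtrl library.
LGR6 fell by 0.41 on the log2 scale (edgeR adjusted p 0.00498), and MYBL2 fell by 0.31 (edgeR adjusted p 0.0181), a call that was lost on leaving out replicate 3 of shCtrl or replicates 2 or 3 of shMORC2. KIAA1191 rose from 29.7, 32.1 and 33.9 CPM to 45.1, 51.5 and 53.3 CPM (log2 fold change 0.65, edgeR adjusted p 0.000094). MFF rose from 40.9 ± 0.815 CPM to 50.4 ± 2.64 CPM (SD, n = 3, log2 fold change 0.30, edgeR adjusted p 0.00667). Since groups 1 and 2 are unnamed, the direction of these levels was not set beside the direction of inclusion.

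The other hosts described under the naming rules did not pass the test, with log2 fold changes between -0.21 for AARSD1 and 0.10 for GAS5. For AARSD1 the edgeR adjusted p was 0.0663, and 0.0299 with the replicate block. GAS5 stood at 143 ± 14.2 CPM in control and 154 ± 9.81 CPM in MORC2-depleted libraries (SD, n = 3), with an edgeR adjusted p of 0.387. MARK2 stood at 70.5 ± 2.42 and 71.2 ± 4.97 CPM (edgeR adjusted p 0.894).

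Of the 29 regulators, MORC2 among them, 28 could be tested, and CELF2 was left out for its low counts. In shMORC2, 6 rose and 9 fell. One of those that fell was MORC2, whose fall the hairpin fixes. Without it, 14 of 27 (51.9%) were called, 8 of them lower, beside the 39.5% of all genes called, and the median log2 fold change was -0.07. With the replicate block 19 of the 28 passed, MORC2 among them, beside 49.0% of all genes called with that block. The added ones were MBNL3, NOVA2, PTBP1 and SRSF1. MORC2, the target of the hairpin, went from 46.1, 46.4 and 48.8 CPM in the controls to 35.0, 29.3 and 27.2 CPM, a log2 change of -0.63 with an SE of 0.10 (edgeR adjusted p 0.000216).

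The regulators that fell included both epithelial ones. ESRP1 went from 92.0, 99.6 and 104 CPM to 61.8, 69.2 and 67.2 CPM, a log2 change of -0.58 with an SE of 0.08 (edgeR adjusted p 0.000098). ESRP2 went from 53.1, 50.5 and 55.0 to 38.9, 41.1 and 39.5 CPM, a log2 change of -0.41 with an SE of 0.07 (edgeR adjusted p 0.000868). RBFOX2, which binds GCAUG and was also an MXE host, went from 92.6, 86.0 and 88.4 to 57.9, 58.5 and 56.5 CPM, a log2 change of -0.63 with an SE of 0.07 (edgeR adjusted p 0.000025). None of these showed overlap between shCtrl and shMORC2.
The muscleblind proteins MBNL1 and MBNL2 fell by 0.67 and 0.68 on the log2 scale (edgeR adjusted p 0.000066 and 0.000102), and HNRNPF, a relative of HNRNPH1, by 0.53 (edgeR adjusted p 0.000066). CELF1 fell by 0.25 (edgeR adjusted p 0.0210) and RBM39 by 0.27 (edgeR adjusted p 0.0143), and both calls were lost on leaving out replicate 3 of shCtrl or replicates 2 or 3 of shMORC2.

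Those that rose were of several families. HNRNPM, which competes with the ESRP proteins, went from 968, 738 and 786 CPM to 1327, 1144 and 1248 CPM, a log2 change of 0.58 with an SE of 0.10 (edgeR adjusted p 0.000643). RAVER1, a partner of PTBP1, rose by 0.42, QKI by 0.39 and RBM4 by 0.28 on the log2 scale (edgeR adjusted p 0.000927, 0.00525 and 0.00750). HNRNPA1 rose by 0.26 (edgeR adjusted p 0.0197), which was lost on leaving out replicate 2 of shCtrl or replicates 2 or 3 of shMORC2. NOVA1, a neuronal protein, rose by 1.63 on the log2 scale, from 0.195 to 0.473 CPM to 0.845 to 1.20 CPM (edgeR adjusted p 0.00277). PTBP1, the best-known repressor of mutually exclusive exons, had a log2 fold change of -0.15 (edgeR adjusted p 0.124, and 0.0284 with the replicate block).

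**Figure D5:**
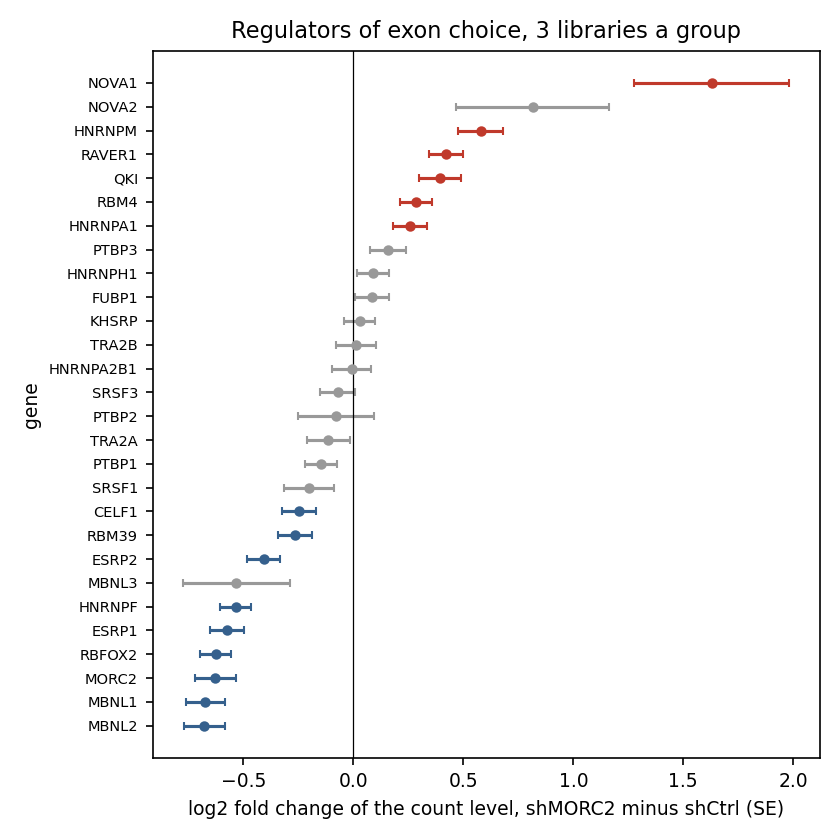
Log2 fold change of the gene level, shMORC2 minus shCtrl (x axis, points, bars are 1 SE), for the 28 tested regulators of exon choice (y axis), 3 libraries a group. Red marks those higher and blue those lower at an edgeR adjusted p under 0.05, 6 and 9 genes, and grey the rest.

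All 7 epithelial markers were detected, with a summed level of 20130 to 26170 CPM in the controls and 19170 to 26050 CPM after depletion. The 4 fibroblast markers summed to 8.42 to 10.5 CPM and 10.3 to 10.5 CPM, nearly all of it COL1A1, with DCN at no more than 3 counts in any library. The 4 leukocyte markers summed to 30.1 to 38.9 CPM and 50.1 to 102 CPM, nearly all of it CD68, a lysosomal protein that other cells make too, with CD3E at no more than 3 counts and PTPRC at 0 to 6 counts. The part of this in the host and regulator calls was not tested. Total counts per library ran from 42092664 to 43434425.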

How the data were processed

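Polyadenylated RNA of 3 shCtrl and 3 shMORC2 libraries was sequenced from stranded libraries with molecular identifiers. The deposited gene table holds raw read counts per gene, which the authors made with Trimmomatic 0.36, STAR 2.5.3a and featureCounts of Subread 1.5.1 on GRCh38, as the submitters' processing notes name them, edgeR 3.12.1 being named too. The deposited splicing table is an rMATS comparison by the authors on target and junction counts, with inclusion levels (a fraction from 0 to 1) for each library. Its columns of p-values, adjusted p-values and the authors' group difference were not used, nor was a deposited RPKM table. Columns belonging to samples of other series numbered 0.

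Exon starts were shifted to 1-based coordinates. Inclusion levels recomputed from reads and form lengths (exon length plus 130 bases) deviated by at most 0.0005 from the deposited ones. Exons were matched by both ends to GENCODE release 44, and pairs were aligned globally with Biopython 1.88 (match 1, mismatch -1, gap opening -2, gap extension -0.5) on GRCh38 sequence. Expression was compared by the quasi-likelihood test of edgeR 4.0.16 under R 4.3.3, after filterByExpr and TMM scaling, with p-values adjusted by Benjamini-Hochberg over 21005 genes, and the step was tested on simulated data. The SE of a log2 fold change was derived from the F statistic. CPM use TMM-scaled library sizes. Alternatives were DESeq2 1.42.0, other scaling, filters, thresholds and depth minimums, the replicate block, other annotation subsets and each library left out.

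Across genes, deviations from the group mean correlated between the shCtrl and shMORC2 library of each replicate number (r = 0.333, 0.165 and 0.149), so the numbers were taken to pair the libraries on the values alone. Inclusion levels were not tested and so not paired, and the splicing table does not number its libraries.

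The events named are those in textbook MXE genes, the 10 largest differences with at least 20 reads in every library and no overlap (1 a gene), the 5 pairs of highest identity, those in 5 genes followed in the study and those in the 5 genes with most events. Exceptions are marked in the text, and 1 event is not reported here. The events, gene lists and rules were chosen with earlier results of these data known.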

Additional observations from a re-analysis of the deposited data

How the results depend on the processing

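No alternative reversed or ended the counts of host genes, regulators, joint transcripts, length classes or groups without overlap, save where a threshold was raised. With a log2 change of at least 1 asked for as well, the host genes called were 9 in place of 230 and the regulators 1 in place of 15. Pairs with an identity of at least 0.5 were 95, those with at least 0.6 were 3, and with a heavier gap penalty 5 reached 0.5. The replicate block, which uses the pairing of the numbers, called 295 hosts and 19 regulators, beside 49.0% of all genes. It ended no call among the named genes. Leaving out each library in turn gave 175 to 229 hosts and 12 to 18 regulators. In all 6 such fits, 152 hosts were called. Shares over all genes were not taken in those fits, so these counts show nothing particular to hosts or regulators. With a library left out, the median absolute difference in inclusion was 0.144 to 0.151. Events without overlap numbered 430 to 448, but leaving out a library cannot lower that count, so it is no check of it. Log2 fold changes near 0 changed sign, with ranges of -0.0141 to 0.0572 for TCF3, -0.0977 to 0.0116 for ERI3, -0.0526 to 0.0549 for GGPS1, -0.0208 to 0.0733 for MARK2, -0.100 to 0.0001 for LIG1, -0.0302 to 0.173 for HDAC11, -0.0865 to 0.0702 for HNRNPA2B1 and -0.0666 to 0.0687 for TRA2B. The cause was not tested. Joint transcripts were 489 with protein-coding transcripts alone, 510 with those tagged basic and 523 with exons matched by overlap. Read shares without the correction for form length turned no difference, and 36 fell under 0.1. Events under 10 reads in a library allow no firm statement about single values.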
